A study of Bos taurus with 7 samples.

Results

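The genes of the hemidesmosome and of laminin-332 were examined in the rumen epithelium of Holstein calves. The members are the array probes whose gene name in the deposited scanner files is COL17A1, ITGA3, ITGA6, ITGB4, LAMA3, LAMB3, DST or PLEC. Of these 8 symbols 7 had a probe, 1 each, among the 14964 gene names on the array, and PLEC, the gene of the cytolinker plectin, is not analysed here. HAY is the group of calves given forage (n = 3, calves 9, 10 and 13), and CON is the group without forage (n = 4, calves 8, 11, 12 and 14). All were Holstein calves with 1 array per calf, and the design names 3 weeks after weaning. Whether this is the time of grouping or of sampling is not clear from it. The series title also names a calf starter feed without giving it to a group, and the labels give no age. The question was whether the levels of these genes differed between the feeding groups.

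A hemidesmosome ties the keratin filaments of a basal epithelial cell to the basement membrane below it. Inside the cell the plakins, plectin and the epithelial form of dystonin, hold the keratins. In the membrane integrin alpha-6 beta-4 and collagen XVII span to the outside, where they bind laminin-332, a trimer that holds the alpha-3 and beta-3 laminin chains. Integrin alpha-3 beta-1 binds the same laminin without being part of the hemidesmosome. The rumen wall is lined by a stratified squamous epithelium, which rests on such a basement membrane.

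Each level below comes from a probe of 60 bases. The probes of DST, COL17A1, ITGB4 and ITGA3 are shown 5′ to 3′, because they define what was measured. They are given in lower case with no part marked.
DST: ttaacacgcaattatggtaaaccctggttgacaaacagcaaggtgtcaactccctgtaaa
COL17A1: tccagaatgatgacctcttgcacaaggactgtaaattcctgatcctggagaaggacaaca
ITGB4: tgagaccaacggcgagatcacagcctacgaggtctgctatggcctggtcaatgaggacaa
ITGA3: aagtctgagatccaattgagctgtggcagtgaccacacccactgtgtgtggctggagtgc
On UMD_3.1 the DST probe lies on the plus strand at chr23:3682494-3682553 and the COL17A1 probe on the minus strand at chr26:24875839-24875898. The probes of ITGB4, at chr19:56480660-56480719, and of ITGA3, at chr19:37206859-37207566, lie on the minus strand of the same chromosome. The ITGA3 probe spans 708 bases of the genome with its 60 bases, so it crosses at least 1 intron and reads spliced RNA. The other probes each covered 60 contiguous bases. Those of LAMA3 on chromosome 24 and ITGA6 on chromosome 2 lie on the minus strand, and that of LAMB3 lies on chromosome 16. The letters AATAAA, the usual polyadenylation signal, were found in 1 of the 7 member probes, that of LAMB3, and in 9.51% of the 15008 probes on the array, searched on the probe strand only. DST is transcribed as an epithelial form and as longer forms of muscle and nerve, and which of them its probe reads was not tested. Exon and UTR annotation of this build was not used here.

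All 7 member probes were well above background on all 3 HAY and all 4 CON arrays, and none was saturated. The share of spots well above background ran from 81.5 to 84.6% over the arrays. Values are log2 signals with the 75th percentile of each array set to 0. Groups were compared with limma over 12570 genes, with p adjusted over all of them. Of these genes 1 passed an adjusted p of 0.05 (0.00796%), and it is not a member. At an unadjusted p under 0.05 stood 1 of the 7 members (14.3%), against 14.0% of all genes tested. The groups did not overlap in 1 of the 7 members (14.3%), against 11.8% of all genes (5.3% lower and 6.55% higher in HAY). No member was lower in HAY by 2-fold or more, where 5.26% of all genes were, or higher by 2-fold or more, where 1.38% were. A share this close to the background is not a result about these genes. The median log2 difference, HAY minus CON, was -0.12 over the members and 0.03 over all genes, with 2 members higher and 5 lower in HAY, where 45.5% of all genes had a lower mean in HAY. All HAY arrays lay in slide row 1 and all CON arrays in slide row 2, so the slide row cannot be told apart from the diet. In whole tissue such as this, fewer cells of a type and less RNA per cell cannot be told apart either.

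The laminin-332 chains among the members did not differ between the groups beyond the spread of the calves. LAMA3, the alpha-3 chain, stood at 1.85, 2.13 and 1.38 in HAY calves 9, 10 and 13, against 1.98, 2.16, 1.86 and 1.33 in CON calves 8, 11, 12 and 14. The lowest calves of both groups lay close to each other, and the groups overlapped across their whole range. The log2 difference was -0.04 (SE 0.25, 95% interval -0.63 to 0.55, limma adjusted p = 0.957). LAMB3, the beta-3 chain, stood at 3.37, 3.86 and 2.22 in HAY, against 2.87, 3.32, 3.19 and 2.57 in CON. HAY held both the highest and the lowest calf. Its log2 difference was 0.16 (SE 0.39, interval -0.74 to 1.06, adjusted p = 0.887), and it was 0.63 without HAY calf 13 (adjusted p = 0.647). Both intervals include values of either sign, and that of LAMB3 is the wider.

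**Figure D1:**
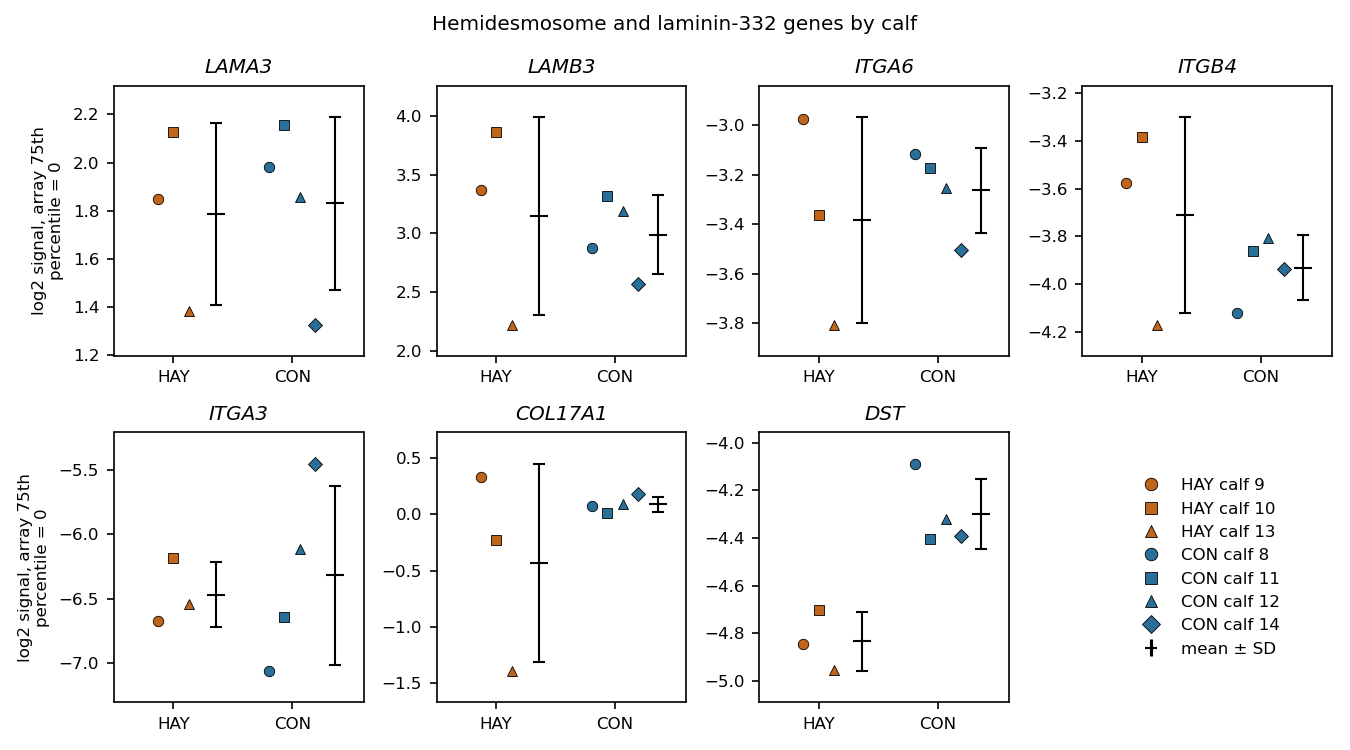
Log2 signal (vertical axes, 0 = 75th percentile of the array, scales differ between panels) of the 7 genes in each calf, HAY (orange, n = 3) left of CON (blue, n = 4), with mean ± SD as bars. DST is the gene whose HAY calves all lie under the CON calves, and HAY calf 13 (triangle) is the lowest HAY calf in 6 of the 7 panels, the exception being ITGA3.

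The 3 integrin chains among the members did not differ beyond the spread either. ITGA6, the alpha-6 integrin chain, stood at -2.98, -3.36 and -3.81 in HAY, against -3.12, -3.17, -3.25 and -3.51 in CON. The highest and the lowest of the 7 calves were both HAY calves. The log2 difference was -0.12 (SE 0.21, interval -0.62 to 0.38, limma adjusted p = 0.843), and it was 0.09 without HAY calf 13. ITGB4, the beta-4 chain that pairs with alpha-6 and carries the long tail that binds plectin, stood at -3.57, -3.39 and -4.17 in HAY, against -4.12, -3.86, -3.81 and -3.94 in CON. HAY calves 9 and 10 lay above all CON calves, and HAY calf 13 lay below them. Leaving out HAY calf 13 therefore raises the ITGB4 difference by construction. The difference was 0.22 (SE 0.21, interval -0.26 to 0.70, adjusted p = 0.673), and it was 0.45 without HAY calf 13 (SE 0.17, unadjusted p = 0.0308, adjusted p = 0.599). ITGA3, the alpha-3 chain, stood at -6.67, -6.19 and -6.54 in HAY, against -7.07, -6.65, -6.12 and -5.45 in CON. It was the dimmest member, with 18.4 to 25.9 intensity units in HAY and 13.8 to 44.8 in CON, and the HAY calves lay inside the CON range. Its difference was -0.15 (SE 0.37, interval -1.01 to 0.71, adjusted p = 0.892), and it was 0.14 without CON calf 14, its highest calf.

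COL17A1, the transmembrane collagen of the hemidesmosome, was spread widely over the HAY calves and narrowly over the CON calves. It stood at 0.33, -0.23 and -1.39 in HAY calves 9, 10 and 13, against 0.08, 0.01, 0.095 and 0.18 in CON calves 8, 11, 12 and 14. The CON calves lay within 0.17 of each other, while HAY calf 9 was above all of them and HAY calf 13 far below. The SD was 0.88 in HAY (n = 3) and 0.07 in CON (n = 4), a ratio of 12.9, which is at percentile 99.9 of the same ratio over all genes tested, whose median is 0.92. This ratio is a description of 7 animals and was not tested. The log2 difference of the means was -0.52 (SE 0.37, interval -1.37 to 0.33, limma adjusted p = 0.553). It rests on HAY calf 13, being -0.04 without that calf (limma adjusted p = 0.976). It was -0.90 without HAY calf 9 (limma unadjusted p = 0.0255, adjusted p = 0.203). Leaving out the lowest or the highest calf moves the difference by construction.

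DST, whose epithelial product BPAG1e is a plakin of the hemidesmosome, was the member whose groups did not overlap. It stood at -4.85, -4.70 and -4.95 in HAY, against -4.09, -4.40, -4.32 and -4.39 in CON. In intensity units, before the arrays were scaled, these were 65.4, 72.4 and 70.7 in HAY, against 108.8, 88.3, 76.4 and 93.5 in CON. Every HAY calf was lower than every CON calf, and the gap between the nearest calves, HAY calf 10 and CON calf 11, exceeded the SD of either group. On the scaled log2 values the HAY mean was 1.45-fold lower, a log2 difference of -0.53 (SE 0.14, interval -0.86 to -0.21). The unadjusted limma p was 0.00588, rank 316 of 12570 genes, and the adjusted p was 0.233, so DST did not pass over all genes. The arrays that share a slide column gave differences of -0.44 (HAY calf 9 against CON calf 11), -0.38 (10 against 12) and -0.56 (13 against 14). Their signs follow from the groups not overlapping, so only their sizes add to the values above.

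**Figure D2:**
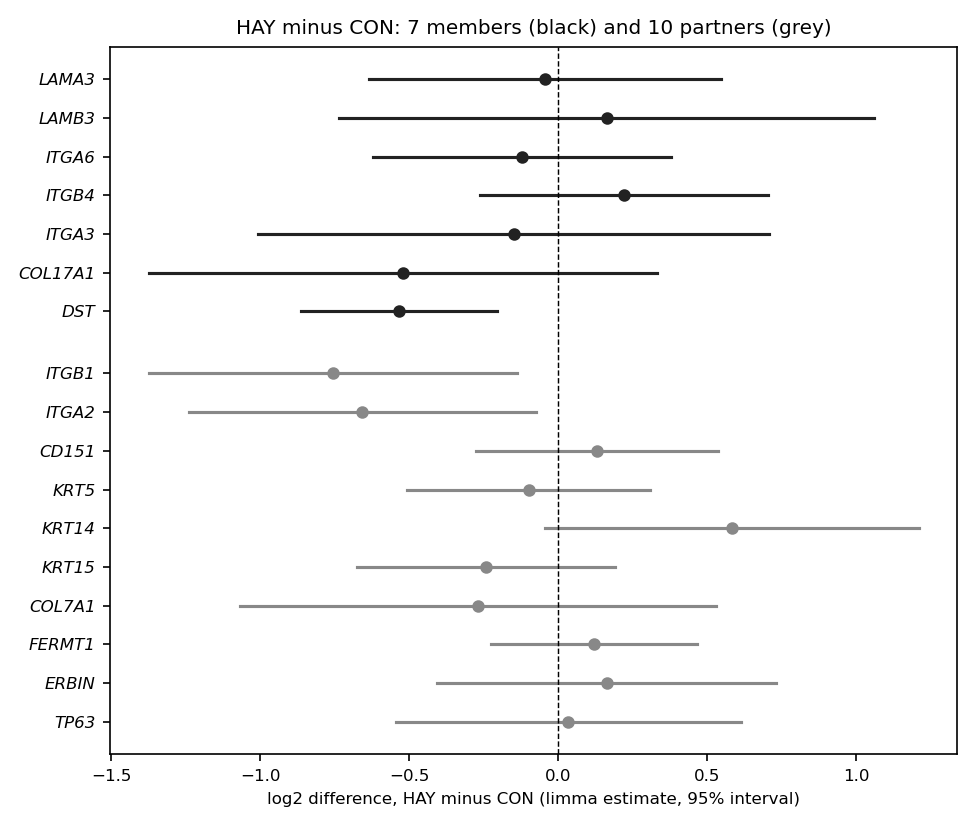
Log2 difference, HAY minus CON (horizontal axis), as the limma estimate (point) with its 95% interval (line), for the 7 members (black) and the 10 partner genes (grey). The intervals of DST, ITGB1 and ITGA2 lie below 0, and those of the other 14 genes cross it; none of the 17 passed the adjustment over all genes.

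Across calves, HAY calf 13 stood apart. It had the lowest value of the 7 calves in 5 of the 7 members (COL17A1, ITGA6, ITGB4, LAMB3 and DST), and in 21.4% of all genes tested. It had the highest value in none of the members and in 17.7% of all genes. CON calf 8, the calf most often lowest over all genes (22.2%), was lowest in 1 member, ITGA3. The mean deviation of the 7 members from their 7-array means was 0.11, 0.21 and -0.56 in HAY calves 9, 10 and 13, against -0.02, 0.10, 0.14 and 0.02 in CON calves 8, 11, 12 and 14. HAY calf 9 thus lay inside the CON range, HAY calf 10 above it and HAY calf 13 below it. Without HAY calf 13 the groups did not overlap in 3 members, ITGB4 and LAMB3 (higher in HAY) and DST (lower), where 17.3% of all genes did not overlap. At an unadjusted p under 0.05 then stood ITGB4 and DST, with 7.83% of all genes, and 4 of 7 members had a higher mean in HAY, as had 54.6% of all genes. Without HAY calf 9 they did not overlap in COL17A1 and DST, both lower in HAY, where 31.0% of all genes did not overlap, and both stood at an unadjusted p under 0.05, with 18.6% of all genes. In either case no member passed the adjustment. HAY calf 13 was the lowest of the 7 calves in ITGB4 and LAMB3, and HAY calf 9 the highest in COL17A1. Leaving them out therefore moves these differences by construction.

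Genes whose products bind each other were also compared as ratios within an array, which the scaling between arrays leaves unchanged. The log2 ratio of ITGA6 over ITGB4, the chains of one integrin, was 0.60, 0.02 and 0.36 in HAY, against 1.003, 0.69, 0.55 and 0.43 in CON. Its mean was lower in HAY by 0.34, and the groups overlapped through HAY calf 9 (two-sided exact permutation p = 0.171, adjusted p = 0.571 over 4 pairs). The ratio of LAMA3 over LAMB3 was -1.52, -1.73 and -0.84 in HAY, against -0.89, -1.16, -1.33 and -1.24 in CON (difference -0.21, exact permutation p = 0.429, adjusted p = 0.571). HAY calves 9 and 10 lay below all CON calves and HAY calf 13 above them. The ratio of ITGA3 over ITGB1, its partner chain, differed by 0.61 (exact permutation p = 0.371, adjusted p = 0.571), from -5.93 to -4.71 in HAY and from -6.71 to -4.62 in CON. The ratio of DST over COL17A1 differed by -0.01 (adjusted exact permutation p = 0.971). The smallest p this design of 35 splits can give is 0.0286. Level ratios of different probes carry each probe's own binding, so only their differences between groups can be read.

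**Figure D3:**
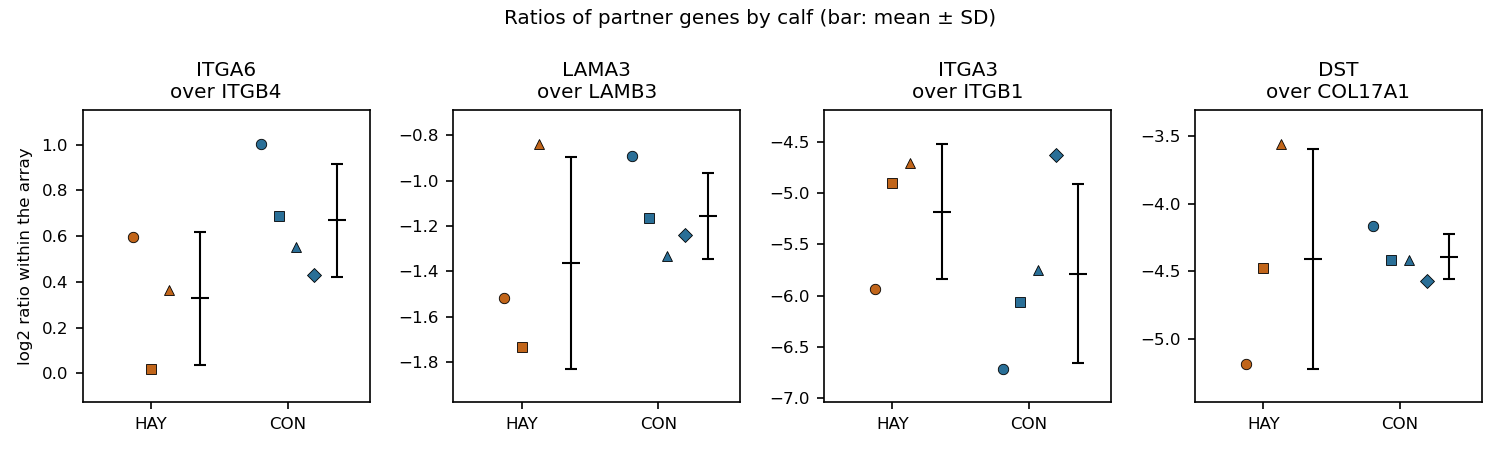
Log2 ratio of 2 genes within each array (vertical axes, scales differ between panels) for 4 pairs of binding partners, HAY (orange, n = 3) left of CON (blue, n = 4), bars being mean ± SD. The groups overlap in all 4 pairs.

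Of the 10 further genes of laminin-332 and hemidesmosome anchoring, all were tested, 5 had a higher and 5 a lower mean in HAY, and the median difference was -0.03. At an unadjusted p under 0.05 stood 2, both lower in HAY, where 7.17% of all genes stood, and none passed the adjustment. ITGB1, the beta-1 integrin chain that pairs with alpha-3 and alpha-2, was at -0.74, -1.29 and -1.84 in HAY, against -0.35, -0.59, -0.37 and -0.83 in CON. Only HAY calf 9 reached the CON range. The difference was -0.76 (SE 0.26, limma adjusted p = 0.296), it was -0.48 without HAY calf 13, and its unadjusted p ranged up to 0.142 over the alternatives. ITGA2, the alpha-2 chain of a collagen receptor, was at -6.71, -6.77 and -6.41 in HAY, against -5.78, -5.92, -6.59 and -5.59 in CON (difference -0.66, SE 0.25, limma adjusted p = 0.321), and CON calf 12 lay among the HAY calves. With normexp background correction the ITGA2 difference was -0.27, and its unadjusted limma p ranged up to 0.096 over the alternatives.

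The keratins of the basal layer had no common direction. KRT14 was higher on average in HAY by 0.58 (SE 0.27, adjusted p = 0.38), at 5.83, 5.95 and 6.31 in HAY, against 4.91, 5.40, 5.44 and 6.04 in CON, where calf 14 overlapped. In KRT14 HAY calf 13 was the highest of the 7 calves. KRT5, the partner keratin of KRT14, differed by -0.10 (SE 0.17) and KRT15 by -0.24 (SE 0.19). CD151, the tetraspanin that joins laminin-binding integrins, differed by 0.13 (SE 0.17), COL7A1, the collagen of anchoring fibrils, by -0.27 (SE 0.34) and FERMT1, the epithelial kindlin, by 0.12 (SE 0.15). ERBIN, a binding protein of BPAG1 and beta-4 integrin, differed by 0.16 (SE 0.24) and TP63, the transcription factor of basal keratinocytes, by 0.03 (SE 0.25). The adjusted p of each of these was at least 0.38.

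In the wider basement membrane list 17 of 25 genes were tested, 4 with a higher and 13 with a lower mean in HAY (median -0.30). At an unadjusted p under 0.05 stood 4 lower and 1 higher, against 7.17% and 6.79% of all genes. LAMA4, a laminin chain of vessels and muscle, differed by -1.61 (SE 0.53, limma adjusted p = 0.285) and COL4A1, a collagen IV chain, by -1.24 (SE 0.45, adjusted p = 0.302), or by -0.66 without HAY calf 13. LAMA5, the alpha-5 chain of epithelial basement membranes, differed by 0.44 (SE 0.17, adjusted p = 0.329), by 0.26 without HAY calf 10 and by 0.06 with normexp. Its HAY calves, from -5.57 to -5.04, lay above the CON calves, from -6.00 to -5.74. COL4A1 was at 0.75, -0.08 and -1.42 in HAY, against 0.86, 1.02, 1.07 and 1.01 in CON, the same order of HAY calves and the same narrow CON group as in COL17A1.

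The next list held proteases listed for the cleavage of laminin-332 and collagen XVII, and regulators of proteases. Of its 16 genes 12 were tested, 1 with a higher and 11 with a lower mean in HAY (median -0.64). Of the 12, 3 were lower at an unadjusted limma p under 0.05, against 7.17% of all genes. BMP1 had no probe, and TLL1, TLL2 and PLG did not pass the filter, so the median leaves these proteases out. TIMP1, a metalloproteinase inhibitor, was at 0.27, -0.22 and -1.08 in HAY, against 1.25, 1.44, 1.72 and 1.58 in CON (difference -1.84, SE 0.31, limma adjusted p = 0.164), and its groups did not overlap. PLAT, the tissue plasminogen activator, differed by -1.15 (SE 0.35, adjusted p = 0.261) and PLAU, the urokinase plasminogen activator, by -0.73 (SE 0.28, adjusted p = 0.325). ADAM9, ADAM10 and ADAM17, the sheddases of collagen XVII, differed by -0.13 (SE 0.26), 0.05 (SE 0.14) and -0.10 (SE 0.16).

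Of the genes that link integrins to actin 18 of 20 were tested, 7 with a higher and 11 with a lower mean in HAY (median -0.24), 7 of the 18 being lower at an unadjusted p under 0.05, against 7.17% of all genes. FLNA, filamin A, differed by -0.75 (SE 0.25, limma adjusted p = 0.281), TLN1, talin, by -0.36 (SE 0.13, adjusted p = 0.301) and FERMT2, a kindlin, by -0.65 (SE 0.23, adjusted p = 0.302). Of 11 other integrin genes 7 were tested, 5 higher and 2 lower (median 0.24). ITGA9 differed by -1.01 (SE 0.42), ITGAV by 0.27 (SE 0.12) and ITGB3 by 0.26 (SE 0.15). Without HAY calf 13 the ITGA9 difference was -0.59, and without CON calf 8 as well it was -0.40. Among the plakins besides DST, 4 of 5 were tested, and MACF1, DSP and PPL differed by 0.37 (SE 0.24), 0.04 (SE 0.25) and -0.02 (SE 0.18), with none at an unadjusted p under 0.05.

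Markers of smooth muscle, fibroblasts and endothelium, beneath the epithelium, had lower means in HAY, while those of nerve and glia had higher means. All 9 tested smooth muscle genes and all 12 tested fibroblast genes had a lower mean in HAY, with medians of -1.33 and -1.47, and so had all 11 endothelial genes (median -0.76). At an unadjusted p under 0.05 stood 7 of the smooth muscle, 6 of the fibroblast and 3 of the endothelial genes. Of all genes 7.17% were lower in HAY at that p, and none of these markers passed the adjustment. Of the 8 tested myeloid genes (median -1.03) 7 were lower at an unadjusted p under 0.05 and 5 were lower without overlap. The shares over all genes were 7.17% and 5.3%. Of the 9 tested T and NK cell genes 6 had a lower mean, 4 of them at an unadjusted p under 0.05 (median -0.90). Of these 4, CD3E and CD5 were well above background on 3 CON arrays and on no HAY array, so only CON kept them tested. CD3D, CD3G and CD2 had a higher mean in HAY. ACTA2, smooth muscle actin, was at 2.91, 2.05 and 1.86 in HAY, against 3.92, 3.67, 3.24 and 3.58 in CON (difference -1.33, SE 0.28, limma adjusted p = 0.21), and COL1A1, a collagen of fibroblasts, differed by -0.21 (SE 0.23). The mean deviation of the smooth muscle genes was -0.16, -1.001 and -1.17 in HAY calves 9, 10 and 13, against 1.58, 0.57, 0.05 and 0.13 in CON calves 8, 11, 12 and 14. CON calf 8, the highest calf of the smooth muscle genes, was also the highest calf of DST. CON calf 12, the lowest CON calf of the smooth muscle genes, lay above CON calves 11 and 14 in DST. The fibroblast genes ranged from -1.50 to 0.20 in HAY and from -0.22 to 1.54 in CON. The nerve and glia genes, of which 5 of 8 were tested and the glial gene SOX10 was not, had higher means in HAY (5 of 5, median 0.21). Their mean deviation ran from 0.16 to 0.24 in HAY and from -0.18 to -0.13 in CON. The mean deviation of the endothelial genes was 0.26, -0.38 and -1.27 in HAY, against 0.71, 0.30, 0.43 and -0.03 in CON. In this list and in several others, among them those of smooth muscle, fibroblasts and basal keratinocytes, HAY calf 9 was the highest and HAY calf 13 the lowest HAY calf, as in COL17A1. The part of other cell types in the values of DST, COL17A1 and ITGB1 was not tested. In DST itself HAY calf 13 was the lowest (-4.95) and CON calf 8 the highest (-4.09) of the 7 calves. Leaving both out therefore narrows the DST difference by construction, whatever the levels of other cell types. Without HAY calf 13 and CON calf 8, which had the lowest and the highest stromal levels, the DST difference was -0.40 (SE 0.17, unadjusted p = 0.0547). No member then stood at an unadjusted p under 0.05, where 5.96% of all genes did. The groups did not overlap in 3 members, where 21.6% of all genes did not, and 4 members had a higher mean in HAY, as had 53.1% of all genes. Of the suprabasal keratinocyte genes 5 had a higher and 6 a lower mean in HAY (median -0.17). Of all genes 7.17% were lower at an unadjusted p under 0.05 and 5.3% lower without overlap. In the suprabasal list 2 of the lower genes met both. These were KRTDAP, a keratinocyte differentiation gene (difference -2.02, SE 0.49, limma adjusted p = 0.216), and KRT4, a suprabasal keratin whose probe was well above background on all 4 CON arrays and on none of the HAY arrays; both are named after their values were seen. Basal keratin genes KRT5, KRT14 and KRT15 were well above background on every array, so the keratinocytes of the labelled tissue were represented.

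**Figure D4:**
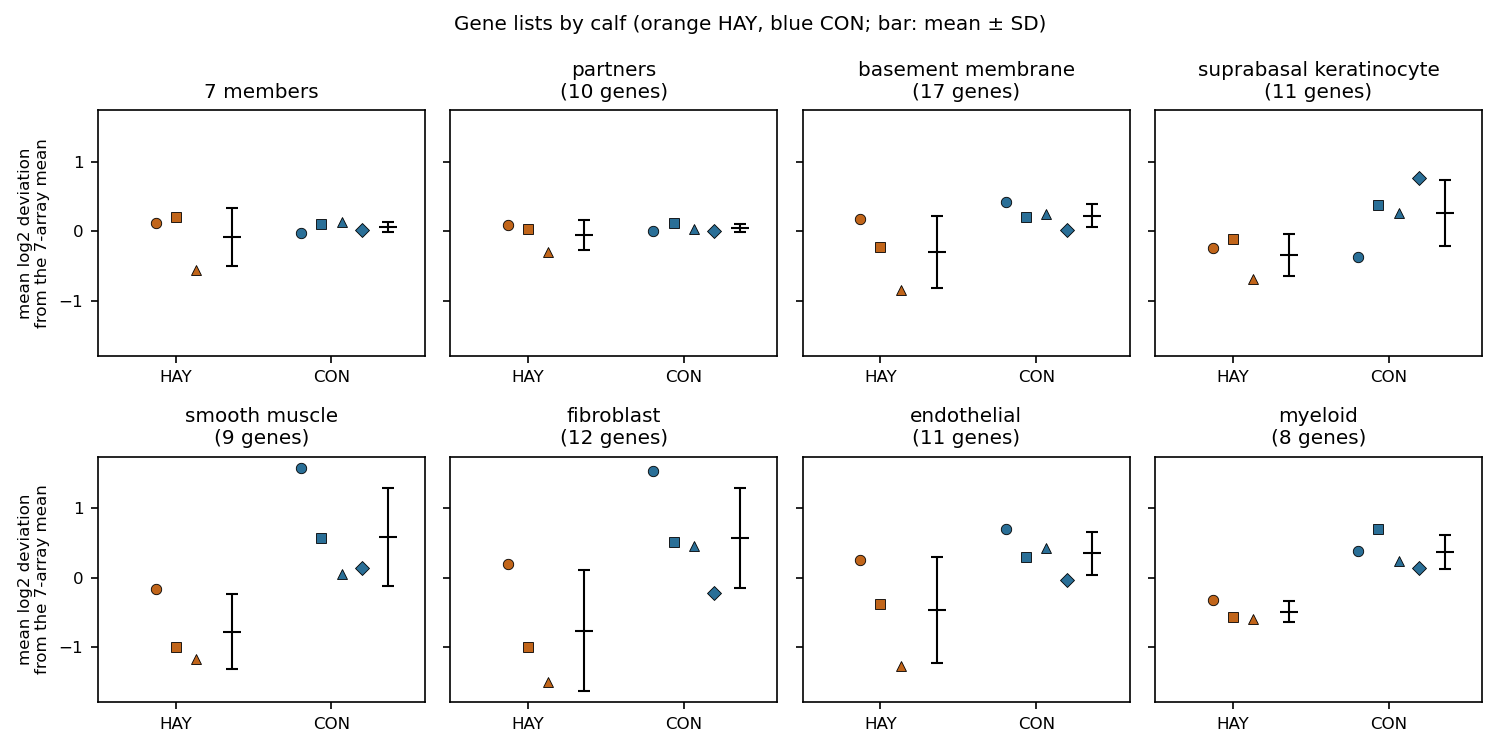
Mean log2 deviation of the tested genes of each list from their own 7-array mean (vertical axis, the same in all panels), per calf, HAY (orange; circle 9, square 10, triangle 13) left of CON (blue; circle 8, square 11, triangle 12, diamond 14), bars being mean ± SD. The 7 members span -0.56 to 0.21 with HAY calf 13 lowest, while the smooth muscle and fibroblast lists span a wider range with CON calf 8 highest.

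For each member the gene with the most similar profile over the 7 arrays was found, by the root mean square difference of the 2 genes' log2 deviations from their own means. Genes named only by a locus, clone or accession number were left out of this search. DST was closest to F5, coagulation factor V (0.059 log2 units), and COL17A1 to RAMP3, a receptor activity-modifying protein (0.121). ITGA6 was closest to RPLP0, a protein of the ribosomal stalk (0.050), LAMA3 to KCTD3 (0.060) and ITGB4 to ATL3, an atlastin GTPase (0.097). ITGA3 was closest to CES2, a carboxylesterase (0.142), and LAMB3 to WDR52 (0.192). Among the members themselves the closest pair was ITGA6 and LAMA3 (0.226) and the most distant ITGA3 and LAMB3 (0.733), so no member had another member as its closest gene. With 7 arrays and 12570 genes a close profile is a description of these calves.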

How the data were processed

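Total RNA of the rumen epithelium was labelled with Cy3 from 500 ng and hybridised to single-colour Agilent arrays, per the labels' protocols. The deposited scanner files hold the intensity of each spot after background subtraction and spatial detrending, per the file headers. The program was Agilent Feature Extraction 9.5 in the submitters' processing notes. The deposited series table holds log2 values, and set against the scanner values these equalled the log2 signal minus each array's 75th percentile, with no centring per gene. The medians of its columns ran from -3.20 to -3.12 in HAY and from -3.11 to -3.08 in CON.

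Control spots and spots marked as outliers were left out, repeated spots of 1 probe were averaged as log2 values, and the 75th percentile of the array was subtracted. A probe was kept if 3 or more of the 7 arrays had it well above background, with the brightest probe per gene, which left 12570 genes. Names were updated by RefSeq accession (ARS-UCD2.0 table, 11194 probes matched). Groups were compared with limma 3.58.1 in R 4.3.3 and Benjamini-Hochberg adjustment, checked on simulated data. Ratios were tested by exact permutation over calves. 3 genes of these lists are not reported here, and counts leave them out. The members and lists were chosen with earlier results of these data known. The named genes were all members and partners, the 3 genes of smallest p per other list, the closest profile per member, and ACTA2 and COL1A1. ADAM9, ADAM10 and ADAM17 were added after their values were seen. Each calf is a separate animal, and the 7 arrays shared 1 slide and 1 scan. The number of arrays limits the precision. Alternatives are in the closing section.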

Additional observations from a re-analysis of the deposited data

Results flagged for a closer look

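In 2 results 1 CON calf lay far from the other 3 by Dixon's criterion at the 95% level, which chance alone passes in about 1 in 20 groups. The criterion was applied to the 41 named genes, the 4 ratios and the level of each list, so some would pass by chance alone. RPLP0, the closest profile to ITGA6, was at 0.89 in CON calf 14 and between 1.12 and 1.16 in the other CON calves (a gap of 0.839 of the range). The mean deviation of the 7 other integrin genes was 0.19 in CON calf 11 and between -0.07 and -0.05 in the other CON calves (a gap of 0.914 of the range). No member gene met this criterion in CON, and groups of 3, such as HAY, were not examined by it.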

How the results depend on the processing

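No member and none of the 41 named genes passed an adjusted p of 0.05 in the main analysis or in any of the 17 alternatives. DST kept its direction in all 17, with differences from -0.60 to -0.40, and COL17A1 and ITGB4 kept theirs too. Most of this was fixed in advance for DST. Its groups do not overlap, so neither leaving out calves nor the slide column block could reverse its sign. These members have 1 probe each, well above background on every array, so the filter, probe averaging and limma variance settings left their differences unchanged. For DST normexp gave -0.41, quantile normalization -0.46 and median centring -0.47. Genes past the adjusted threshold numbered 4 with quantile normalization, 2 with the slide column as a block, 5 without HAY calf 13 and CON calf 8, and 1 to 21 when each calf was left out (7 if HAY calf 9 was omitted, 2 if HAY calf 13, 21 if CON calf 14 and 4 if CON calf 8). Without HAY calf 13 and CON calf 8, 749 genes stood at an unadjusted p under 0.05, 314 of them higher and 435 lower in HAY, and 0 members did; 4 members had a higher mean in HAY (53.1% of all genes) and 3 did not overlap (21.6% of all genes). That alternative gave medians of -0.19 for the protease list and -0.037 for the actin linkage list. With no filter on dim probes the other integrins had a median of 0.050. Leaving out each calf gave 984 to 2344 genes at an unadjusted p under 0.05, 379 to 1148 higher and 496 to 1196 lower, 1 to 2 members at that p, 1 to 4 members higher in HAY, 1 to 3 without overlap, and partner medians of -0.18 to 0.14.

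Some differences changed sign. LAMA3 had 0.020 with median centring, 0.0056 with the slide column as a block and 0.21 without HAY calf 13 and CON calf 8. ITGA6 had 0.14 in the last of these, COL7A1 0.0012, COL1A1 0.028, RPLP0 0.10, WDR52 0.38, DSP -0.0051 and KCTD3 0.25. The slide column block gave DSP -0.10 and KCTD3 0.056, quantile normalization gave DSP -0.029 and KCTD3 0.039, median centring gave PPL 0.049 and KCTD3 0.040, and normexp gave PPL 0.035. The ratio of DST over COL17A1 differed by 0.12 with normexp. Leaving out each calf gave ITGA3 -0.40 to 0.14, ITGA6 -0.32 to 0.092, LAMA3 -0.21 to 0.16, LAMB3 -0.19 to 0.63, COL7A1 -0.48 to 0.092, KRT5 -0.18 to 0.021, TP63 -0.18 to 0.24, DSP -0.20 to 0.20, PPL -0.11 to 0.14, CES2 -0.37 to 0.12, RPLP0 -0.34 to 0.069, ATL3 -0.0023 to 0.27, KCTD3 -0.20 to 0.17 and WDR52 -0.41 to 0.40. The ratio of DST over COL17A1 then ranged from -0.44 to 0.37. The cause of these shifts was not tested. No paired analysis was possible because the groups share no calf number; the fit with the slide column as a block compares arrays by position, not by animal.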
